A study of Mus musculus with 8 samples.

Results

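The miR-130 and miR-301 family of mouse microRNAs (miRNAs, small non-coding RNAs that repress mRNAs to which they bind) was followed across 3 induction groups of C3H10T1/2 cells. Its members were taken as the probes annotated to mmu-miR-130a-3p, mmu-miR-130b-3p, mmu-miR-301a-3p or mmu-miR-301b-3p (written below without mmu, for mouse), where 3p names the strand from the 3′ arm of the hairpin precursor, which made 4 of the 611 mouse miRNAs on the array. C3H10T1/2 is a mouse mesenchymal line that responds to hedgehog proteins and can form fat, cartilage or bone cells. Cells of the WT group received wild type IhhN, the amino-terminal signalling part of Indian hedgehog, and cells of the MT group received IhhN with the E95K substitution of brachydactyly type A1, both at 750 nM for 48 h. Both were recombinant human proteins made in bacteria, which were added to the medium of the mouse cells. Cells of the control group were labelled as induced with no protein and harvested after the same 48 h. One of their labels nevertheless carries 750 nM, so the dose in this group was taken as unstated. Each group held 2 RNA samples, and each WT sample was hybridized on 2 arrays, which gave 4 WT arrays, 2 MT arrays and 2 control arrays on 1 slide. No label says whether the RNA samples of a group came from separate cultures, so the p-values measure the spread between these samples, which may be technical.

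A miRNA finds its targets mainly through the seed, bases 2 to 8 from its 5′ end, so members of a family with 1 seed share many predicted targets. miR-130a and miR-130b are known to repress Pparg, the master regulator of fat cell formation, in preadipocytes, and members of the family also act in blood vessel growth. In the mouse, miR-301a is made from a hairpin inside Ska2, a gene for a component of the kinetochore, which holds chromosomes to the spindle. Hedgehog signals are known to hold back fat formation in C3H10T1/2 cells.

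The mature sequences from RefSeq (GRCm38.p6) are shown because the probes of the members had to tell them apart. They are written 5′ to 3′, with the seed in capitals.
miR-130a-3p: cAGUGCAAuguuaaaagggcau
miR-130b-3p: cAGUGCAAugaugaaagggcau
miR-301a-3p: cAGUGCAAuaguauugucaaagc
miR-721, of the same seed but not a member: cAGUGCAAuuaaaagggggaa
The RefSeq table held the mature sequence of 3 of the 4 members, and miR-301b-3p is named only. The first 9 bases were the same in the 3 members with a sequence. miR-130a-3p and miR-130b-3p had 20 of 22 aligned positions in common, whereas miR-130a-3p and miR-301a-3p had 12 of 22 and miR-130b-3p and miR-301a-3p had 11 of 22. The seed AGUGCAA stood at bases 2 to 8 of 7 of the 1679 mature mouse miRNAs in the table.

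In the genome, the mature miR-130a-3p lay at chr2:84741116-84741137 on the minus strand, in a hairpin that overlapped no other annotated gene. The nearest protein-coding gene was Ypel4, at a distance of 2460 bases. miR-301a-3p lay at chr11:87113054-87113076 on the plus strand, inside Ska2. miR-130b-3p lay at chr16:17124071-17124092 on the minus strand, inside 2610318N02Rik. The hairpin of miR-301b lay in the same gene and on the same strand at chr16:17124400-17124496, with 257 bases between the 2 hairpins. Thus the 2 members of the chromosome 16 pair are neighbours, and the other 2 members each lie on a chromosome of their own.

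Of the 4 members, 1 was detected on all 8 arrays, 1 on some and 2 on none. A member counted as detected on an array when more than 50% of the spots of any of its probes, outlier spots left out, were marked well above background. miR-130a-3p was detected on 8 of 8 arrays, and all 154 of its spots over the arrays were well above background. miR-301a-3p was detected on 6 of 8 arrays, which were 3 of the 4 WT arrays, 1 of the 2 MT arrays and 2 of the 2 control arrays. The arrays without it were the first array of WT replicate 1 and the array of MT replicate 1. Feature Extraction's own mark per miRNA, which pools the spots of both probes, was set for miR-301a-3p on all 8 arrays.

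The neighbours on chromosome 16, miR-130b-3p and miR-301b-3p, were both not well above background on any array. For miR-130b-3p, 0 of 153 spots over the 8 arrays were well above background, and the mean of a probe on an array was between -8.7 and 1.9 scaled signal units. These values were below the floor of 16.9 units (4.08 on the log2 scale), which was set from the dimmest detected probes. For miR-301b-3p, 2 of 157 spots were well above background, 1 on an MT array and 1 on a WT array, and the probe means ranged from -0.5 to 15.2 units. On control replicate 1, the median of the spots was -1.82 units for miR-130b-3p and 3.27 for miR-301b-3p, against 2.85 for the negative control spots. No difference between groups was measured for either member, since neither was detected in any group and all values were set to the floor. miR-130b-3p stayed there on the same arrays on which the probes of miR-130a-3p, with 20 of 22 positions in common, read 230.3 to 498.2 units.

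**Figure D1:**
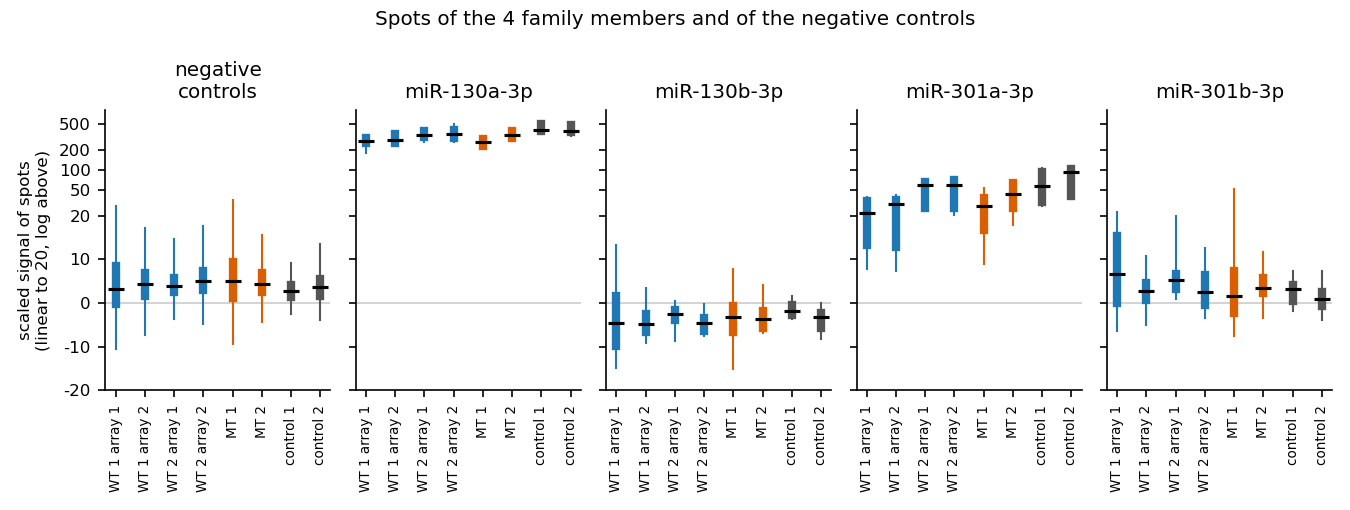
Scaled signal of the single spots on each of the 8 arrays (thin line, lowest to highest; thick line, middle 50%; black mark, median) for the negative control spots and the 4 members, on an axis that is linear up to 20 units and logarithmic above. The spots of miR-130a-3p sit far above the negative controls on every array. Those of miR-301a-3p overlap them on both arrays of WT replicate 1 and on that of MT replicate 1. Those of miR-301b-3p lie mostly in the range of the negative controls. Those of miR-130b-3p lie in the low part of that range or below it, with a median under the middle 50% of the negative controls on every array.

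The other strand of the hairpins and the remaining relative of the family were not detected either. miR-130b-5p, the 5′ arm partner of miR-130b-3p and the sole such partner on the array, was well above background in 0 of 155 spots. miR-721, which shares the seed, was not detected on any array by the share of spots, although Feature Extraction set its own mark on 1 array, that of control replicate 2. It had 5 of 156 spots well above background and a highest value of 4.40 on the log2 scale. Of the miRNAs with this seed on the array, those detected by the share of spots were miR-130a-3p and miR-301a-3p.

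The cells carried the miRNAs of a mesenchymal line. Of 6 markers of mesenchymal cells or fibroblasts, such as miR-199a-3p and miR-214-3p, 5 were detected on all 8 arrays and miR-145a-5p on 7. Markers of neurons (2), liver (1), muscle (3), blood (4), epithelium (4), endothelium (1) and pluripotent cells (3) were detected on 0 arrays. The arrays differed in sensitivity. The number of mouse miRNAs detected was 104 and 117 on the arrays of WT replicate 1, 144 and 147 on those of WT replicate 2, 106 and 143 on the MT arrays, and 150 and 146 on the control arrays. The negative control spots spread most on the 2 arrays of slide column 1, with an SD of 6.63 units on the first array of WT replicate 1 and 5.61 on the array of MT replicate 1, against 2.91 to 3.76 on the others.

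miR-130a-3p was highest in the control group. Its scaled signal on the log2 scale was 8.28 and 8.46 on the arrays of WT replicate 1 and 8.60 and 8.68 on those of WT replicate 2. It was 8.18 and 8.59 on the MT arrays and 8.96 and 8.91 on the control arrays. Both control arrays lay above all 6 arrays of the induced groups, which overlapped each other. The group means were 8.51 ± 0.19 in WT, 8.38 ± 0.29 in MT and 8.94 ± 0.03 in control (SD, n = 2 RNA samples each, technical arrays averaged). The arrays of 1 WT sample differed by less than the samples did, with an SD of 0.13 for replicate 1 and 0.06 for replicate 2.

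The control group was also highest before scaling. The mean signal of the brighter probe was 293, 321, 424 and 351 units on the WT arrays, 247 and 321 on the MT arrays, and 754 and 562 on the control arrays. The control arrays were brighter throughout, with a 75th percentile of 785 and 606 units against 432 to 565 on the others, so the unscaled values hold that brightness as well. The other probe of miR-130a-3p gave log2 values of 7.92, 8.04, 8.27 and 8.25 on the WT arrays, 7.85 and 8.25 on the MT arrays, and 8.60 and 8.54 on the control arrays. It too placed both control arrays above every other array.

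miR-301a-3p was highest in the control group too, with a wider spread between samples. Its scaled signal on the log2 scale was 4.96 and 5.12 on the arrays of WT replicate 1 and 6.06 and 6.07 on those of WT replicate 2. It was 5.28 and 5.97 on the MT arrays and 6.53 and 6.68 on the control arrays. Both control arrays again lay above all 6 arrays of the induced groups. The group means were 5.55 ± 0.73 in WT, 5.63 ± 0.48 in MT and 6.60 ± 0.11 in control (SD, n = 2 RNA samples each). The SD between arrays of 1 WT sample was 0.11 and 0.01, so most of the WT spread lay between the 2 RNA samples. The arrays of WT replicate 1 lay in slide columns 1 and 2 and those of WT replicate 2 in columns 3 and 4. Sample and side of the slide thus cannot be told apart in this spread, nor in that of miR-130a-3p. The low samples, WT replicate 1 and MT replicate 1, were also those with the fewest detected miRNAs and the widest negative controls. The part of sensitivity in the low values was not tested. The other, dimmer probe of miR-301a-3p gave log2 values of 4.08, 4.08, 4.70 and 4.72 on the WT arrays, where 4.08 is the floor. It gave 4.13 and 4.63 on the MT arrays and 5.06 and 5.29 on the control arrays.

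**Figure D2:**
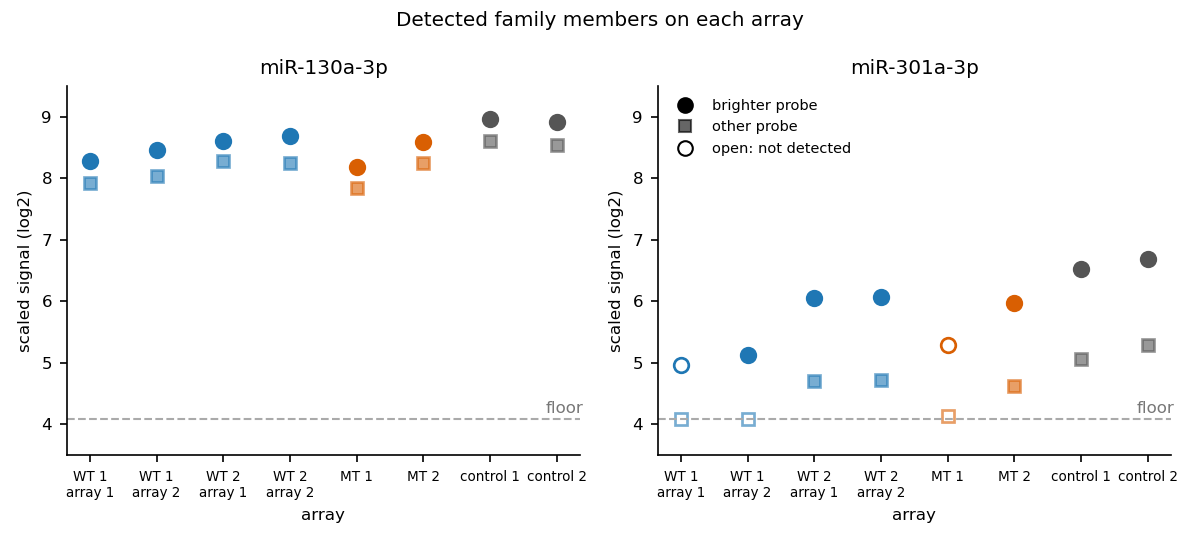
Scaled signal on the log2 scale of both probes of miR-130a-3p and miR-301a-3p on each of the 8 arrays (blue WT, orange MT, grey control; circles, brighter probe; squares, other probe; open, not detected; dashed line, floor). The control arrays read 8.91 to 8.96 for miR-130a-3p and 6.53 to 6.68 for miR-301a-3p with the brighter probe, above every WT and MT array.

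The first comparison asks how wild type IhhN moved the family against cells without added protein. Both detected members had lower values in the WT group, and neither passed the threshold. miR-301a-3p was among the 142 miRNAs tested only because both control arrays detected it, since a miRNA had to be detected on all arrays of some group, so its differences from control, their ranks and their p-values are conditioned on a high control group. Its WT mean includes an array on which it was not detected, with 0 of 9 spots of the brighter probe well above background. miR-301a-3p, the Ska2-embedded member, differed by -1.05 on the log2 scale (95% interval -1.92 to -0.19), with a measured control mean 2.08 times as high (limma, adjusted p = 0.139 by Benjamini-Hochberg over the 142 miRNAs tested). miR-130a-3p, a repressor of Pparg, differed by -0.43 (-0.89 to 0.03), a control group 1.35 times as high (limma, adjusted p = 0.19). Ordered from the lowest difference, miR-301a-3p was number 3 and miR-130a-3p number 20 of 142, while the median of all 142 was 0.11. At the adjusted threshold of 0.05 limma called 0 of the 2 tested members and 0 of 142 miRNAs (0%). At an unadjusted p under 0.05, 1 of the 2 members (miR-301a-3p) was lower, as were 15 of the 142 miRNAs (10.6%), and 25 were higher. No WT array overlapped a control array for either member, which held with lower WT values for 32 of the 142 (22.5%).

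The size of the difference of miR-301a-3p moved with the WT sample used. It was -0.54 without WT replicate 1 and -1.57 without WT replicate 2. miR-130a-3p differed by -0.29 without WT replicate 1 and by -0.57 without WT replicate 2. WT replicate 2 and both control samples lay on the right side of the slide (columns 3 and 4), so the values without WT replicate 1 are also those within that side. All WT arrays lay in row 1 of the slide, and all MT and control arrays in row 2. Slide row and group therefore cannot be told apart in any comparison with WT, also within 1 side.

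The second comparison asks the same of the mutant IhhN. Again both detected members had lower values than in control cells and neither passed the threshold. miR-301a-3p differed by -0.98 on the log2 scale (-1.84 to -0.12), a measured control mean 1.97 times as high (limma, adjusted p = 0.0993), with the same condition on the control group. The MT mean includes the array of replicate 1, on which it was not detected, with 4 of 10 spots of the brighter probe well above background. miR-130a-3p differed by -0.55 (-1.01 to -0.09), a control group 1.47 times as high (limma, adjusted p = 0.0893). They were number 2 and number 15 from the lowest of 142, and the median of all 142 was 0.13. Of the 142 miRNAs, limma called 0 (0%) at the adjusted threshold. At an unadjusted p under 0.05 both members were lower, as were 18 of 142 miRNAs (12.7%), and 38 were higher. No MT array overlapped a control array for either member, as was so with lower MT values for 38 of 142 (26.8%). Both comparisons use the same control samples, so their values are not independent of each other.

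The MT arrays filled the left side of row 2 and the control arrays its right side, so side of the slide and group cannot be told apart from these groups alone. With the side as a term, which rests on the difference between the WT samples, miR-301a-3p differed by 0.05 and miR-130a-3p by -0.28. Without MT replicate 1, the array in column 1, the differences were -0.64 and -0.35. Without MT replicate 2 they were -1.32 and -0.76, and that of miR-301a-3p then passed the threshold (limma, adjusted p = 0.0345). That fit has 1 MT sample, an array on which miR-301a-3p was not detected, and assumes that it varies like the other groups.

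**Figure D3:**
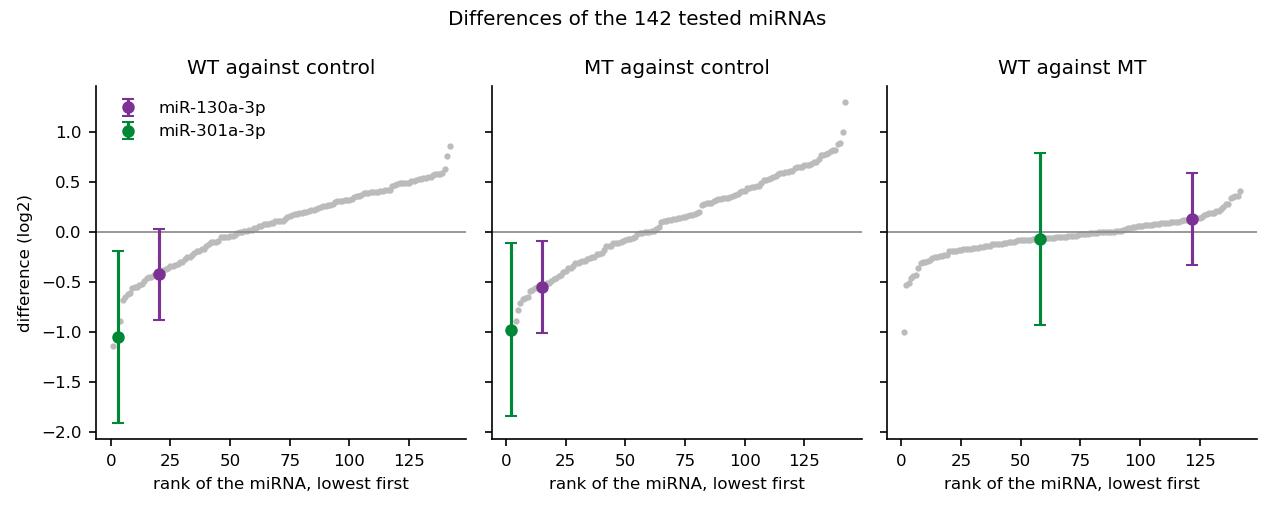
Differences on the log2 scale of the 142 tested miRNAs in each comparison, ordered from the lowest (grey points), with miR-130a-3p and miR-301a-3p and their 95% intervals in colour. Against control, miR-301a-3p stands at rank 3 in WT and 2 in MT and miR-130a-3p at rank 20 and 15, while between WT and MT both intervals span 0. The ranks of miR-301a-3p against control are conditioned on a high control group, through which alone it was tested.

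The third comparison asks whether the 2 proteins differed in their effect, which is also the test of the difference between the first and second comparisons. miR-130a-3p was 0.12 higher in WT than in MT (-0.34 to 0.58), and miR-301a-3p differed by -0.07 (-0.94 to 0.79), both on the log2 scale (limma, adjusted p = 0.99 and 1.0). The intervals leave room for a WT level of up to 1.5 times that of MT for miR-130a-3p and for an MT level of up to 1.91 times that of WT for miR-301a-3p, so the data do not show that the proteins acted alike on these miRNAs. limma called 0 of 142 miRNAs at the adjusted threshold (0%), and at an unadjusted p under 0.05 none was lower in WT (0%). The direction of both differences turned with the sample left out. It was turned for miR-130a-3p without WT replicate 2 (-0.01) or MT replicate 1 (-0.08), and for miR-301a-3p without WT replicate 1 (0.44) or MT replicate 2 (0.27). Within the left side of the slide, which held WT replicate 1 and both MT samples, the differences were -0.01 and -0.59. The WT and MT arrays lay in different slide rows there too, so row and group cannot be told apart.

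With 2 samples against 2, the smallest p that an exact permutation test could give is 0.333, so no test of that kind was used. In RNA from a whole culture, fewer cells that make a miRNA and less of it per cell cannot be told apart.

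The detected members also shared a low content of G and C, part of which the choice by seed fixed, since their first 9 bases were the same. G and C made up 40.9% of miR-130a-3p and 39.1% of miR-301a-3p, against a median of 47.6% over the 118 tested miRNAs that had a sequence in the RefSeq table. Over these 118 miRNAs, which share the same arrays, the content of G and C and the difference from control had a Spearman rho of 0.51 (Pearson r 0.48) for WT and 0.53 (0.52) for MT, a description across miRNAs that are not replicates. Of the 41 miRNAs with no more G and C than miR-130a-3p, 29 had lower values in WT than in control and 28 had lower values in MT, with medians of -0.24 and -0.23. Among the 77 with more, the medians were 0.25 and 0.33. Within the 41, miR-301a-3p was number 3 from the lowest in WT and 2 in MT, whereas miR-130a-3p was number 13 and 11. The ranks of miR-301a-3p carry the same condition on a high control group, through which alone it was tested. The part of base composition in the lower values was not tested.

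**Figure D4:**
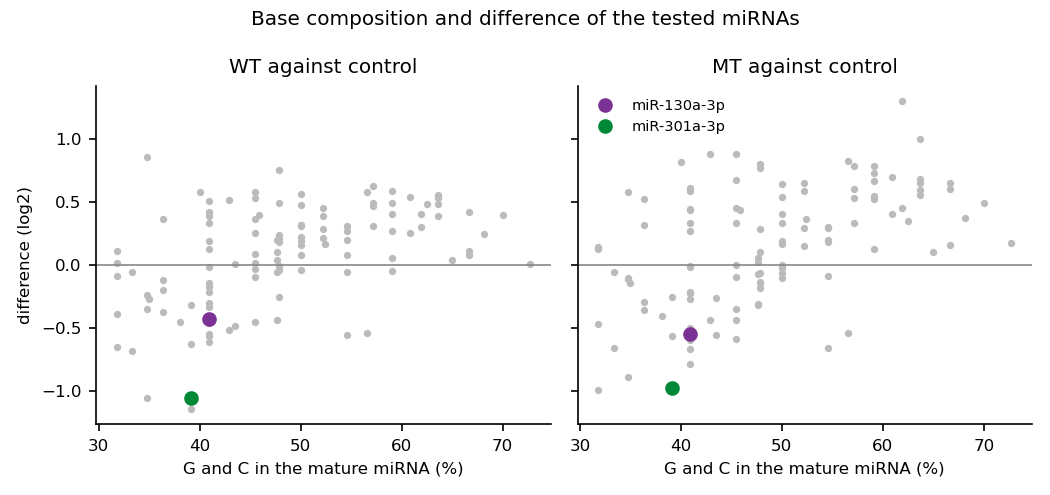
Content of G and C of each mature miRNA in percent (x axis) and its difference from control on the log2 scale (y axis) for the 118 tested miRNAs with a RefSeq sequence, in WT and MT. Low differences gather at low contents, where miR-130a-3p (40.9%) and miR-301a-3p (39.1%) lie.

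The profile of miR-130a-3p over the 6 RNA samples was shared by other miRNAs. After each miRNA detected on all 8 arrays was centred on its mean, the nearest of the 102 compared was miR-350-3p, at a root mean square distance of 0.042 on the log2 scale, followed by miR-31-3p at 0.055 and miR-16-5p at 0.059. The median distance was 0.41. Their differences from control were -0.43, -0.49 and -0.45 in WT and -0.50, -0.56 and -0.59 in MT. miR-301a-3p, the relative with the same seed, was at 0.35.

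A set of miRNAs with the family's first bases moved 1 place has a seed of its own, CAGUGCA, which equals bases 1 to 7 of the family. It is shown to give the overlap, with the seed in capitals.
miR-148a-3p: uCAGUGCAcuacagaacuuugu
miR-148b-3p: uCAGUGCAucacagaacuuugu
miR-152-3p: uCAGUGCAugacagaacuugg
These miRNAs, regulators of DNA methyltransferase 1, were detected on all 8 arrays, and none passed the adjusted threshold. miR-148a-3p differed from control by -0.56 in WT and -0.60 in MT, and miR-152-3p by -0.44 and -0.31. miR-148b-3p differed by 0.42 and 0.59, in the opposite direction, although all 3 share the seed.

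The other miRNAs with a known part in fat formation had values on both sides of 0. Of the 31 in this list, 22 were tested and limma called 0 of them at the adjusted threshold in any of the 3 comparisons. At an unadjusted p under 0.05, 3 were lower and 4 higher in WT than in control, against 15 lower and 25 higher of all 142. In MT 3 were lower and 4 higher, against 18 and 38 of all 142. The median difference was 0.06 in WT and -0.02 in MT, against 0.11 and 0.13 over all 142. The 3 lower ones were the same in WT and MT. They were miR-26b-5p, which promotes fat formation, with -0.68 in WT and -0.66 in MT, miR-21-5p with -0.89 and -0.71, and miR-15a-5p with -0.46 and -0.56. The other Pparg repressors of the list, miR-27a-3p and miR-27b-3p, differed by 0.17 and 0.10 in WT and by 0.36 and 0.02 in MT. The 4 higher ones, also the same in WT and MT, were let-7a-5p, let-7b-5p, miR-93-5p and miR-193b-3p. Of these, let-7b-5p, of a family that restrains growth, had values of 0.53 and 0.67, and miR-93-5p 0.45 and 0.65. Between WT and MT, 13 of the 22 were lower and 9 higher in WT, with a median of -0.02 and none at an unadjusted p under 0.05.

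**Figure D5:**
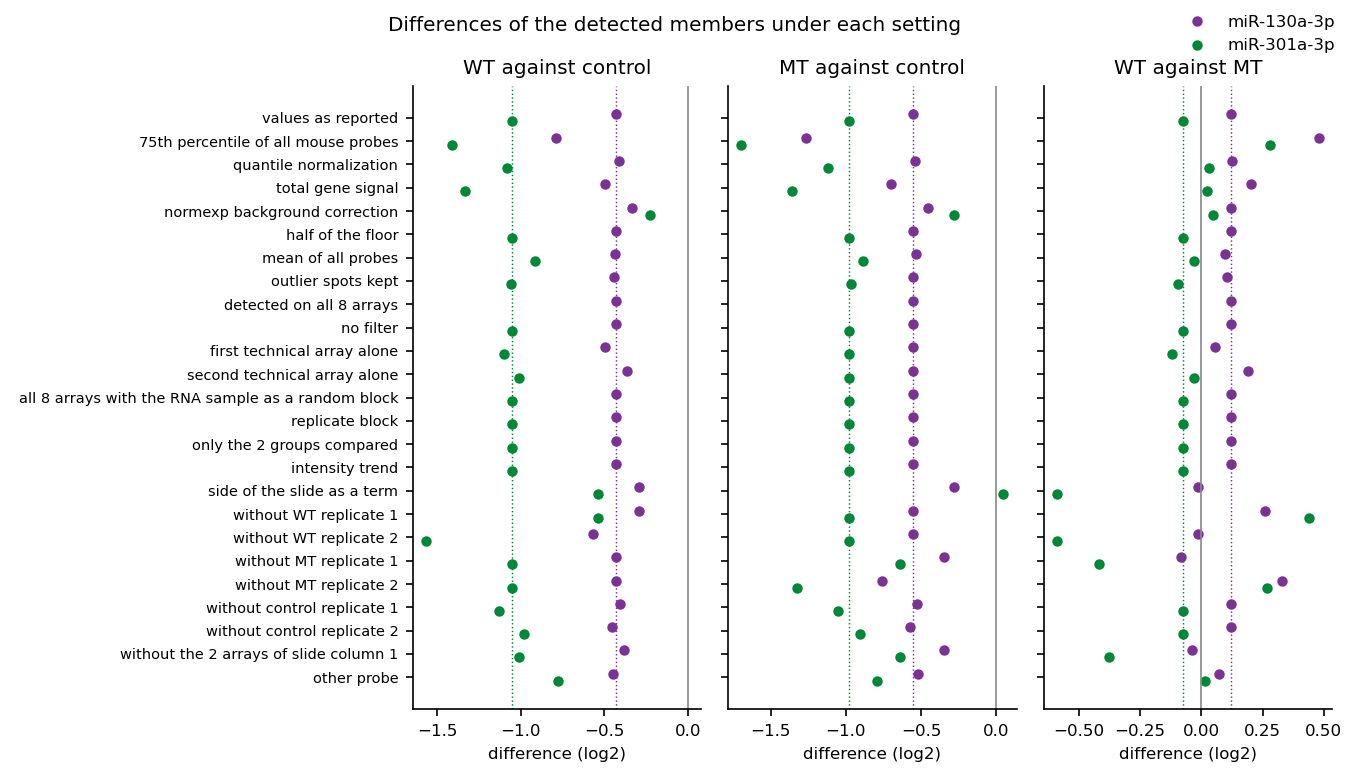
Differences on the log2 scale of miR-130a-3p and miR-301a-3p (x axis) under each way of processing or sample left out (y axis), with the reported values as dotted lines. Both members stay below 0 against control at every setting but 1, the side of the slide for miR-301a-3p in MT, while between WT and MT their values lie on both sides of 0. Some of the settings cannot move a difference.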

How the data were processed

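The 8 one-colour Agilent arrays of miRNAs shared 1 slide. The authors deposited for each array the Feature Extraction output, in which each spot has an intensity already corrected for background and spatial trend, and other deposited columns used were Feature Extraction's marks of outlier, saturated and well above background spots. The table of the whole series held the same background-subtracted intensity and gave no separate alternative. The file headers name version 10.7.1.1 and build mm9 and the submitters' processing notes version 9.1, while the methods name a gene expression array. The sources used here do not say how the authors normalized these arrays.

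Outlier spots were left out and the spots of a probe averaged. Scaling divided the signals of an array by their 75th percentile over the 174 probes that all 8 arrays detected, so changes are relative to it. The floor was then set and log2 taken, the brightest probe was used, and the technical arrays of a WT sample were averaged. No array detected 449 of the 611 mouse miRNAs, and all 8 detected 103. Tested were the 142 that every array of some group detected. They were fitted over the 3 groups in 1 model with limma (version 3.58.1, under R version 4.3.3; threshold 0.05 after Benjamini-Hochberg adjustment), a fit checked on simulated data. Base composition used the 118 tested miRNAs (83.1%) with a RefSeq sequence, and 476 of the 611 names matched the RefSeq table. Figures were drawn with matplotlib version 3.10.9. The number of arrays limits the precision.

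The members and lists were chosen with earlier results of these data known. Named were the members, the other arms of their hairpins, miRNAs with their seed, the 3 profiles nearest to a member detected on all arrays, and examples of the lists of the offset seed and of fat formation, with array names without the letter a taken where the array uses them. Base composition, the crossed block and the setting without slide column 1 were chosen after seeing the data. Alternatives covered scaling, quantile normalization, signal, background, floor, filter, probe, technical arrays, block, slide side, trend and samples left out.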

Additional observations from a re-analysis of the deposited data

How the results depend on the processing

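Against control, miR-130a-3p kept its direction in all 24 alternatives in WT and MT and miR-301a-3p in 23 of 23 and 22 of 23. These counts include settings that cannot move a difference, such as filter, block and trend. In MT miR-301a-3p reversed to 0.048 with the slide side term. Without single replicates, miR-130a-3p ranged from -0.57 to -0.29 in WT and from -0.76 to -0.35 in MT, and miR-301a-3p from -1.57 to -0.54 and from -1.32 to -0.64. Under normexp background correction miR-301a-3p was -0.23 in WT and -0.28 in MT, and miR-130a-3p in MT passed the threshold at -0.46 (limma, adjusted p = 0.042, against 0.0345 to 0.9756 over the alternatives of both members in MT). That made 1 member past the threshold, as did leaving out MT replicate 2 (1 member, miR-301a-3p; range 0 to 1 over the replicates left out). The latter fit has 1 MT sample and the limits above. With the 75th percentile of all mouse probes, the median of all miRNAs moved to -0.19 in WT and -0.51 in MT, and miR-130a-3p was -0.79 and -1.27, or -0.60 and -0.75 relative to that median. Without the 2 arrays of slide column 1, miR-130a-3p was -0.38 and -0.35 and miR-301a-3p -1.01 and -0.64. With its other probe, which read the floor on both arrays of WT replicate 1, miR-301a-3p was -0.78 in WT and -0.79 in MT.

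The number of all miRNAs past the threshold moved from 0 in WT against control to 3 with the total gene signal (166 tested), 22 with normexp and 1 with a floor 0.5 times as high. In MT against control it moved from 0 to 3, 40 and 1 under the same settings, 29 with miRNAs detected on all 8 arrays (103 tested, without miR-301a-3p), 1 without a filter, where limma warned that its variances were unreliable, and 11 when all 8 arrays entered with RNA sample as random block. It ranged from 0 to 18 without single replicates, with 18 without MT replicate 2, and in WT against MT from 0 to 1, with 1 in the same setting. The causes were not tested.

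Between WT and MT, miR-130a-3p reversed to -0.014 with the side term and -0.037 without slide column 1, and ranged from -0.083 to 0.33 without single replicates. miR-301a-3p reversed to 0.28 with the percentile of all probes, 0.033 with quantile normalization, 0.025 with total gene signal, 0.049 with normexp and 0.017 with its other probe, and ranged from -0.59 to 0.44 without single replicates.

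With 2 samples a group, the data cannot settle whether the replicate numbers of the labels pair the samples. Deviations of same-numbered samples had correlations of 0.02 (WT and MT), 0.39 (WT and control) and -0.46 (MT and control). Replicate 1 read below replicate 2 in every group for miR-301a-3p, and in WT and MT but not in control for miR-130a-3p. A block by replicate number, which cannot move the differences, called 0 miRNAs (limma, adjusted p = 0.0838 to 0.173 for members against control). The crossed pairing of MT and control, chosen after seeing the data, not from labels, called 26.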
